A study of Mus musculus with 13 samples.

Results

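The leukocyte adhesion genes followed in mouse liver were *Icam1*, *Icam2*, *Vcam1*, *Sele*, *Selp*, *Itgal*, *Itgam*, *Itgb2* and *Itga4*. They were chosen by name, as the listed adhesion molecules of endothelium and of leukocytes, and they are 9 of the 53465 genes in the count table. There were 6 WT and 7 *Nod2*-/- mice, and the liver RNA of each made 1 library. *Nod2* codes for an intracellular sensor of bacterial peptidoglycan fragments. All 13 mice were BALB/c, an inbred laboratory strain, and all were males given DMBA, a carcinogen, on the skin as pups and then kept on a high fat diet (HFD). The labels give 30 weeks for the age and for the diet, and they give cancer as the disease state of both genotypes. The study reports that *Nod2*-/- males so treated gained more weight and more often had liver tumors than WT males. Weight and tumor load may thus differ between the groups, and they cannot be told apart from genotype here. Both genotypes carry the carcinogen and the diet, and mice without them are not analysed here. The *Nod2*-/- and WT mice were bred as separate lines, so line and genotype cannot be told apart.

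Leukocytes leave the blood in steps. Selectins on activated endothelium, P-selectin (*Selp*) and E-selectin (*Sele*), slow the passing cells by binding carbohydrate ligands, and integrins on the leukocyte then hold on to immunoglobulin-like ligands on the endothelium. An integrin is a pair of an alpha and a beta chain. LFA-1 (*Itgal* with *Itgb2*) and Mac-1 (*Itgam* with *Itgb2*) bind ICAM-1 (*Icam1*), LFA-1 also binds ICAM-2 (*Icam2*), and VLA-4 (*Itga4* with *Itgb1*) binds VCAM-1 (*Vcam1*). In the liver, much of this traffic passes through sinusoids, where adhesion is known to depend less on selectins than in other tissues.

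Depth ran from 13824780 to 20579984 counts per mouse. Counts were scaled by edgeR's TMM method to a common library size and are called normalized counts here. WT replicate 3 lay farthest from its own group, by a mean distance of 0.702 on the log2 scale over the tested genes against 0.525 to 0.566 for the other WT mice. The *Nod2*-/- replicate 7 stood apart by neutrophil genes, whose normalized counts summed over 14 markers to 17938, against at most 1592 in the other *Nod2*-/- mice and at most 198 in WT mice. *Nod2* itself had 0 to 6 counts in each mouse and could not check the genotypes. Where leaving out either mouse moved a member's difference between genotypes across 5% FDR by edgeR or an exact permutation p of 0.05, the value without it is given beside the result.

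Per length of merged exons, *Icam1* and *Vcam1* had the highest mean levels of the 9 transcripts in WT mice and *Sele* the lowest. In WT mice, normalized counts per kb were 36.5 ± 13.9 (SD, n = 6) for *Icam1* and 31.9 ± 6.95 for *Vcam1*. They were 21.02 ± 9.70 for *Itgb2*, 19.1 ± 4.97 for *Icam2* and 16.0 ± 5.88 for *Itgal*. *Selp* followed at 6.80 ± 1.55, *Itga4* at 1.80 ± 1.22, *Itgam* at 1.15 ± 0.359 and *Sele* at 0.385 ± 0.647. Neighbours in this order overlapped in level for *Icam1* and *Vcam1* (*Icam1* higher in 4 of 6 WT mice), *Itgb2* and *Icam2* (4 of 6), *Icam2* and *Itgal* (5 of 6), *Itga4* and *Itgam* (4 of 6), and *Itgam* and *Sele* (5 of 6). *Vcam1* was above *Itgb2*, *Itgal* above *Selp*, and *Selp* above *Itga4* in 6 of 6 WT mice.

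In *Nod2*-/- mice, *Icam1* led more clearly, at 84.6 ± 31.7 normalized counts per kb (SD, n = 7), and was above *Vcam1* in 7 of 7 mice. *Vcam1* was at 38.4 ± 18.9 and *Itgb2* at 35.9 ± 28.3, and *Vcam1* was the higher of both in 4 of 7 mice. *Itgal*, at 24.5 ± 12.6, moved ahead of *Icam2*, at 19.9 ± 4.15, but in 4 of 7 mice only. *Selp* was at 14.4 ± 5.84, *Itga4* at 3.40 ± 1.83, *Itgam* at 3.31 ± 4.72 and *Sele* at 0.991 ± 0.544. These levels carry no test, and the merged length of 13978 bases for *Itga4*, the longest of the 9, lowers its value per kb.

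**Figure D1:**
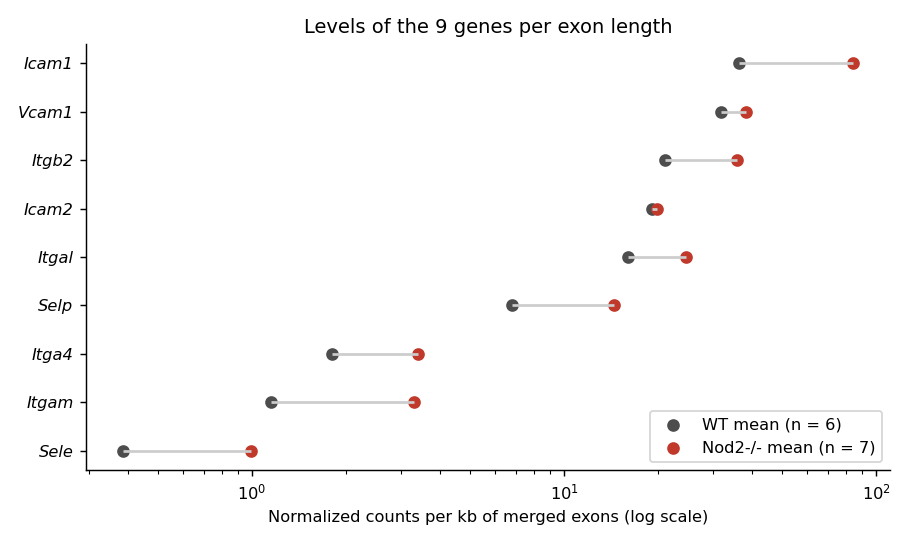
Mean level of each gene in WT (grey) and *Nod2*-/- (red) livers, in normalized counts per kb of merged exons on a log axis, joined by a line. *Icam1* rises from 36.5 to 84.6 and *Selp* from 6.80 to 14.4, while the points of *Icam2* at 19.1 and 19.9 lie almost on each other.

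The comparison of *Nod2*-/- with WT livers asked which adhesion transcripts differ between the genotypes under the same carcinogen and diet. Of the 9 genes, 7 passed edgeR's expression filter and were tested among 13545 genes, while *Sele* and *Itgam* were too low. The test was the quasi-likelihood F test of edgeR, and p was adjusted by the method of Benjamini and Hochberg over all tested genes. *Icam1* was higher in *Nod2*-/- mice at 5% FDR, and 1 of 7 tested members was therefore past the threshold, where 1.16% of all tested genes were (0.65% higher and 0.509% lower). All 7 had a log2 fold change above 0, as did 52.3% of all tested genes, and the median was 0.77 against 0.02 over all tested genes. At an unadjusted p under 0.05, 3 of 7 (*Icam1*, *Selp* and *Itga4*) were higher, where 12.9% of all tested genes were higher and 10.2% lower, 23.1% in all. No member's 2 groups were free of overlap, which held for 1.44% of the tested genes. By DESeq2, 2 members (*Icam1* and *Selp*) were higher at 5% FDR, where 3.81% of its genes were higher and 7.26% changed in either direction. *Icam1* and *Selp* are also among genes that the study itself picked on these samples for their change, so their direction here is not independent evidence.

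**Figure D2:**
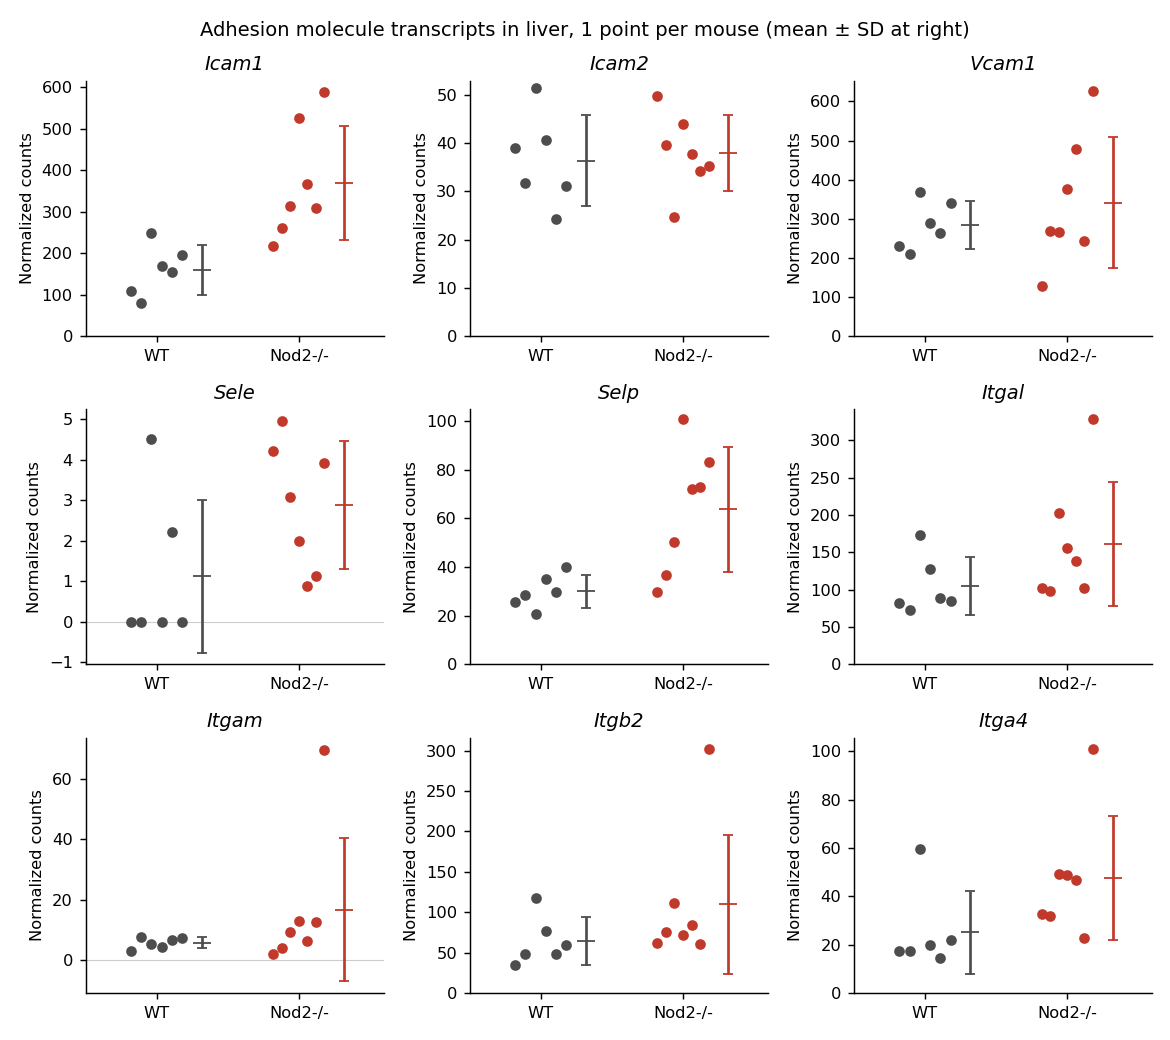
Normalized counts of the 9 genes, 1 point per mouse, for WT (grey, n = 6) and *Nod2*-/- livers (red, n = 7), with the mean and SD at the right of each group and a separate linear axis per gene. For *Icam1*, 6 of 7 *Nod2*-/- mice lie above every WT mouse, and for *Itgam*, *Itgb2* and *Itga4* the highest red point is the same mouse, *Nod2*-/- replicate 7.

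*Icam1* (ENSMUSG00000037405.8, chr9:21015985-21028817, plus strand of GRCm38) codes for a ligand of LFA-1 and Mac-1 on endothelium, hepatocytes and other cells. Its normalized counts ran from 78.9 over a median of 162 to 248 in WT mice and from 217 over 314 to 590.0 in *Nod2*-/- mice. In all, 6 of the 7 *Nod2*-/- mice were above every WT mouse, and the overlap came from WT replicate 3, the highest of its group, against *Nod2*-/- replicate 1, the lowest of its own. The mean was 159 ± 60.4 (SD, n = 6) in WT and 369 ± 138 (SD, n = 7) in *Nod2*-/- livers. The log2 fold change was 1.21 ± 0.28 (SE), or 2.31-fold with a 95% interval of 1.54 to 3.48 (edgeR, adjusted p = 0.0490), and the two-sided exact permutation test gave p = 0.00291. No gene of the 13545 passed 5% FDR by that permutation test, and 21.1% had an unadjusted p under 0.05.

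The *Icam1* call sat just inside the threshold, and its direction was the same in every fit that left out 1 mouse, with a log2 fold change of 1.06 to 1.37. The edgeR adjusted p was above 0.05 without WT replicates 1 (0.115), 2 (0.112), 4 (0.104), 5 (0.102) or 6 (0.0563) and without *Nod2*-/- replicates 4 (0.0988), 5 (0.0572), 6 (0.0628) or 7 (0.0928). Without both mice that stand apart, the log2 fold change was 1.23 with an edgeR adjusted p of 0.0285. Exact permutation p-values without 1 mouse were 0.00216 to 0.0114.

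*Icam2* (ENSMUSG00000001029.15, chr11:106377656-106388075, minus strand) codes for a ligand of LFA-1 that resting endothelium carries constitutively. It had 24.3 to 51.5 normalized counts in WT mice (median 35.4) and 24.7 to 49.7 in *Nod2*-/- mice (median 37.8). The ranges nearly coincided, and no *Nod2*-/- mouse was above the highest WT mouse. Its log2 fold change was 0.06 ± 0.20 (SE), with a 95% interval of the fold of 0.771 to 1.40 (edgeR, adjusted p = 0.891). That interval lies below the estimate of 2.31-fold for *Icam1*.

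*Vcam1* (ENSMUSG00000027962.14, chr3:116109949-116129688, minus strand) codes for the endothelial ligand of VLA-4. WT mice had 211 to 369 normalized counts (median 276) and *Nod2*-/- mice 129 to 627 (median 268). The *Nod2*-/- mice spanned the WT range on both sides, with replicate 1 below every WT mouse and 3 mice above every WT mouse. The log2 fold change was 0.27 ± 0.28 (SE), with a 95% interval of the fold of 0.792 to 1.83 (edgeR, adjusted p = 0.592). Without *Nod2*-/- replicate 7 it was 0.05.

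*Selp* (ENSMUSG00000026580.16, chr1:164115264-164150026, plus strand) codes for P-selectin, which endothelium and platelets store in granules and move to their surface on activation. Its normalized counts were 20.8 to 40.1 in WT mice (median 29.2) and 29.6 to 101 in *Nod2*-/- mice (median 72.1). Above every WT mouse were 5 of the 7 *Nod2*-/- mice, and all 7 were above the WT median. The mean was 30.0 ± 6.85 (SD, n = 6) against 63.7 ± 25.8 (SD, n = 7). The log2 fold change of 1.08 ± 0.28 (SE), or 2.12-fold with a 95% interval of 1.40 to 3.19, was past 5% FDR by DESeq2 (adjusted p = 0.00971) and not by edgeR (adjusted p = 0.0644). The exact permutation test gave p = 0.0128. By edgeR it passed 5% FDR without *Nod2*-/- replicate 1 (adjusted p = 0.0380), and without both mice that stand apart the log2 fold change was 0.92 (adjusted p = 0.0896). An antisense gene, *Gm16548*, shares 438 of the 4413 exon bases of *Selp* and had 173 to 239 counts in WT and 132 to 237 in *Nod2*-/- mice, ranges that overlap.

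*Sele* (ENSMUSG00000026582.6, chr1:164048234-164057677, plus strand), the gene of E-selectin, lies 57.6 kb from *Selp* on the same strand. It had 0 counts in 4 of 6 WT mice, with normalized counts of 2.21 and 4.52 in the other two, and 0.879 to 4.96 in the *Nod2*-/- mice (median 3.08). No mouse had more than 5 counts, and 5 of 6 WT and 4 of 7 *Nod2*-/- mice had at most 3. The exact permutation test gave p = 0.0938 on normalized counts and p = 0.0431 on their log2 scale with 1 added. On normalized counts the exact permutation p was 0.0177 without WT replicate 3, 0.152 without *Nod2*-/- replicate 7 and 0.0281 without both, so at these few counts the call depends on the scale and on WT replicate 3. The other pair of neighbours, *Itgal* and *Itgam*, lies 727.5 kb apart on chromosome 7.

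The promoters of *Icam1*, *Selp* and *Sele* are shown for letters of a motif of inflammatory induction. Those of *Icam2* and *Vcam1* were not found and not searched. RefSeq promoter sequences of GRCm38.p6 matched 5 of the 9 genes, *Icam1*, *Sele*, *Selp*, *Itgam* and *Itga4*, and the 250 bases before each start were searched on both strands. The letters GGNNNTTCC, a loose form of the binding site of NF-kB, the transcription factor known to induce *Icam1*, *Sele* and *Vcam1* in inflamed endothelium, occur in 15.7% of 32851 mouse promoters of that length. The 3 endothelial promoters each hold them, as shown here 5′ to 3′ on the plus strand with these matches in capitals. For *Sele*, the second run of capitals, TTCCTC, is GAGGAA on the other strand, the core letters of the PU.1 site of myeloid genes, which 23.3% of the promoters hold.
Icam1, chr9:21015690-21015939: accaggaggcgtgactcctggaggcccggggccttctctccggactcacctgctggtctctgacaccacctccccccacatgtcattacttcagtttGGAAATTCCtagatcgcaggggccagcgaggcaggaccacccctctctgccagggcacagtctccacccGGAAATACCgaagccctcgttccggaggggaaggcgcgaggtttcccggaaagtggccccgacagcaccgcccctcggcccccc
Selp, chr1:164115014-164115263: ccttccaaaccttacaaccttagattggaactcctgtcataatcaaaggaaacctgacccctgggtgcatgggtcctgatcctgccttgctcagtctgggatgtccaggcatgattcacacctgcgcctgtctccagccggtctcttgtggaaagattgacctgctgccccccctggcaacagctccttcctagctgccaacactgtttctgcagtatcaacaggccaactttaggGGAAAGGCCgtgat
Sele, chr1:164047984-164048233: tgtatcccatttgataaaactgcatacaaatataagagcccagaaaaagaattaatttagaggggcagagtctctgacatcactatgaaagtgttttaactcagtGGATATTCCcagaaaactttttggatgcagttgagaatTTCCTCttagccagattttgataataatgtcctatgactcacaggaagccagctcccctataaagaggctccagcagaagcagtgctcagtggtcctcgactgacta

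In the *Icam1* promoter the match at 153 to 145 bases before the RefSeq start reads on both strands, and the one at 84 to 76 bases on the minus strand. That start lies 45 bases before the gene start of the GENCODE annotation used for positions, and both starts coincide for *Sele* and *Selp*. The match lies at 145 to 137 bases in *Sele*, on the plus strand, and at 14 to 6 bases in *Selp*, on the minus strand. A match describes letters in this window and not a bound site, and *Sele*, with a match, was near 0 counts in these livers.

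On the leukocyte side the LFA-1 chains were the most abundant of the 4 integrin chains per kb. *Itgal* (ENSMUSG00000030830.18, chr7:127296260-127335138, plus strand), the alpha chain of LFA-1, had 73.5 to 174 normalized counts in WT mice (median 86.4) and 98.1 to 328 in *Nod2*-/- mice (median 138). All 7 *Nod2*-/- mice were above the WT median, but 2 of them only were above the highest WT mouse, replicate 3. The log2 fold change was 0.62 ± 0.30 (SE), with a 95% interval of the fold of 0.983 to 2.39 (edgeR, adjusted p = 0.234; exact permutation p = 0.145). It was 0.34 without *Nod2*-/- replicate 7 and 0.81 without WT replicate 3.

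*Itgb2* (ENSMUSG00000000290.13, chr10:77530252-77565708, plus strand) codes for CD18, the beta chain that LFA-1 and Mac-1 share. WT mice had 34.9 to 117 normalized counts (median 53.8) and *Nod2*-/- mice 60.3 to 302 (median 75.3). Replicate 7 alone among the *Nod2*-/- mice was above the highest WT mouse, and it held 39.4% of the summed counts of its group. The log2 fold change was 0.77 ± 0.40 (SE), with a 95% interval of the fold of 0.943 to 3.08 (edgeR, adjusted p = 0.262; exact permutation p = 0.237). Without *Nod2*-/- replicate 7 it was 0.27, and without WT replicate 3 it was 1.02. Without both, the exact permutation p was 0.0455 (log2 fold change 0.54, edgeR adjusted p = 0.161).

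*Itga4* (ENSMUSG00000027009.18, chr2:79255426-79333123, plus strand), the alpha chain of VLA-4, had the smallest p of the 3 tested integrin chains. WT mice had 14.4 to 59.6 normalized counts (median 18.6) and *Nod2*-/- mice 22.8 to 101 (median 46.6). Of the 6 WT mice, 5 were below every *Nod2*-/- mouse, and the sixth, replicate 3, was above all of them but replicate 7. The log2 fold change was 0.91 ± 0.39 (SE), or 1.88-fold with a 95% interval of 1.06 to 3.33 (edgeR, adjusted p = 0.182; exact permutation p = 0.0798). Without WT replicate 3 it was 1.36 (edgeR, adjusted p = 0.0309), without *Nod2*-/- replicate 7 it was 0.61 (adjusted p = 0.358), and without both it was 1.08 (adjusted p = 0.0315). The exact permutation p was 0.0114, 0.119 and 0.00433 in the same order. Its partner chain *Itgb1*, named after its values were seen, ranged from 2938 to 3568 normalized counts in WT and from 3057 to 3974 in *Nod2*-/- mice (log2 fold change 0.09, edgeR adjusted p = 0.5998).

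*Itgam* (ENSMUSG00000030786.18, chr7:128062640-128118491, plus strand) codes for CD11b, the Mac-1 alpha chain of neutrophils, monocytes and macrophages. It had 3.08 to 7.68 normalized counts in WT mice (median 6.03) and 2.12 to 69.6 in *Nod2*-/- mice (median 9.25). Replicate 7 held 59.7% of the counts of the *Nod2*-/- group, the next mouse had 12.96, and 4 of 7 *Nod2*-/- mice were above every WT mouse. The exact permutation test gave p = 0.272. DESeq2, which kept the gene, gave a log2 fold change of 1.51 (adjusted p = 0.148), and 0.41 (adjusted p = 0.694) without replicate 7.

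The *Itgam* counts have a limit that the other members do not. A read-through gene, *Gm49368*, runs on the same strand from *Itgam* into its neighbour and shares 3450 of the 5024 exon bases of *Itgam*, or 68.7%. It was listed with 0 counts in 12 of 13 mice and 1 count in the other. The counting program is not given in the sources used here, and whether it drops reads that fall on both genes was not tested. Over the 1574 unshared exon bases alone, the level of *Itgam* would be 3.66 ± 1.14 normalized counts per kb in WT (SD, n = 6) and 10.6 ± 15.1 in *Nod2*-/- mice (SD, n = 7). The remaining overlaps were on the opposite strand and covered 0.7% to 11.7% of the exon bases of *Icam1*, *Vcam1*, *Selp* and *Itga4*. Its promoter holds the GAGGAA letters on the plus strand at 84 to 79 bases and on the minus strand at 15 to 10 bases before the start, in capitals here, and no GGNNNTTCC. The *Itga4* promoter holds neither.
Itgam, chr7:128062390-128062639: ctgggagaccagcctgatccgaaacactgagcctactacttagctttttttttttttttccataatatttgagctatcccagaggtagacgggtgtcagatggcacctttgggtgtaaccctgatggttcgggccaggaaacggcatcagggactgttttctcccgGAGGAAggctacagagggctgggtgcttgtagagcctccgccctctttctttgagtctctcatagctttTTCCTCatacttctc

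**Figure D3:**
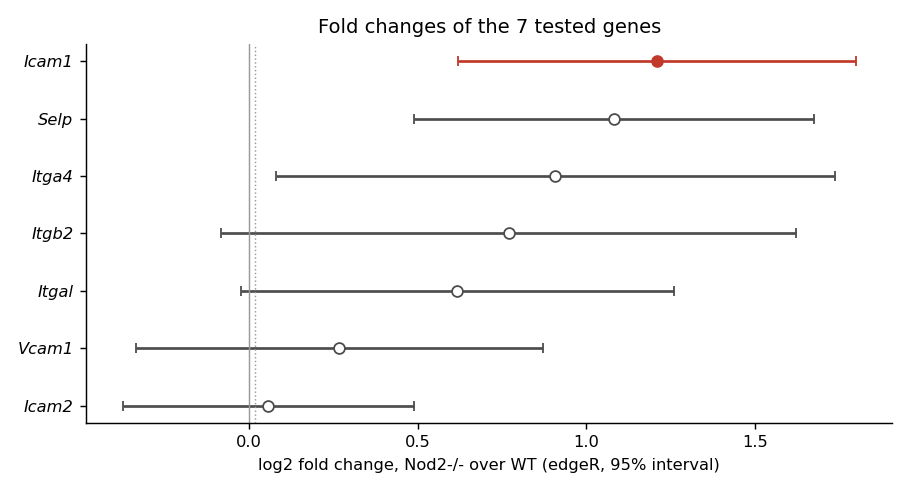
Log2 fold change of *Nod2*-/- over WT for the 7 tested genes with 95% intervals from edgeR; the filled red point is past 5% FDR, and the dotted line is the median of all tested genes at 0.02. The intervals of *Icam1*, *Selp* and *Itga4* lie above 0, and those of *Itgal*, *Itgb2*, *Vcam1* and *Icam2* include it.

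The cells that carry these molecules were read from marker genes. In bulk RNA, fewer cells of a type and less RNA per cell cannot be told apart. Over all tested genes, 52.3% had a log2 fold change above 0. At an unadjusted p under 0.05, 12.9% were higher and 10.2% lower. Of 10 markers of sinusoidal endothelium, 9 had a log2 fold change above 0 and 1 was higher at an unadjusted p under 0.05, with summed normalized counts of 4254 to 5898 in WT and 4780 to 5768 in *Nod2*-/- mice. Of 12 markers of vascular endothelium, 10 were above 0 and 4 were higher at an unadjusted p under 0.05, with sums of 3295 to 4226 and 3753 to 5015. *Vwf*, the von Willebrand factor that endothelium stores beside P-selectin, was the leading one, with a log2 fold change of 1.32 (edgeR, adjusted p = 0.0512). Of the 22, 0 passed 5% FDR by edgeR and 1 by DESeq2. Of 10 markers of all leukocytes, 9 were above 0, 7 were higher at an unadjusted p under 0.05 and 0 passed 5% FDR by edgeR (2 by DESeq2), with sums of 1945 to 2327 in WT, 1653 to 2412 in 6 *Nod2*-/- mice and 4649 in replicate 7. *Lcp1* made up most of these sums, with a median of 1516 in WT mice and 1386 in *Nod2*-/- mice. It alone of these markers had a log2 fold change below 0 (−0.23, edgeR adjusted p = 0.375), so the sums mostly reflect that gene.

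*Icam1* and *Selp* were then set against the 22 endothelial markers within each mouse, and the integrin chains against the 10 leukocyte markers, as log2 CPM minus the mean log2 CPM of the markers. *Icam1* stood at −0.78 ± 0.46 (SD, n = 6) relative to endothelial markers in WT and at 0.18 ± 0.48 (SD, n = 7) in *Nod2*-/- mice, a difference of 0.96 (two-sided exact permutation p = 0.00175). On this measure 6 of the 7 *Nod2*-/- mice were above every WT mouse. *Selp* differed by 0.70 (exact permutation p = 0.0303), with 5 of 7 *Nod2*-/- mice above every WT mouse. The p for *Selp* was over 0.05 without WT replicates 1 (exact permutation p = 0.0518) or 3 (0.0669), without *Nod2*-/- replicates 4, 5, 6 or 7 (0.0584 each), and without both mice that stand apart (0.117). *Vcam1* and *Icam2* differed by −0.11 (exact permutation p = 0.714) and −0.19 (exact permutation p = 0.311). The endothelial markers themselves were higher by 0.25 in *Nod2*-/- mice (exact permutation p = 0.0064). Cells other than endothelium also carry some of these molecules, among them hepatocytes for *Icam1* and platelets for *Selp*. These differences are therefore not levels per endothelial cell, and the part of each cell type in them was not tested.

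The LFA-1 chains followed the leukocyte markers closely. Relative to them, *Itgal* differed by −0.09 (exact permutation p = 0.541) and *Itgb2* by −0.02 (exact permutation p = 0.906), while the markers were higher by 0.64 in *Nod2*-/- mice (exact permutation p = 0.0478). *Itga4* differed by 0.26 (exact permutation p = 0.251), and by 0.44 without WT replicate 3 (exact permutation p = 0.0215). Another reference was the sum of the marker CPM, in which *Lcp1*, with its log2 fold change below 0, weighs most. Against that sum *Itga4* differed by 0.78 (exact permutation p = 0.0245). *Itgal* and *Itgb2* turned to differences of 0.43 and 0.50 (exact permutation p = 0.0589 and 0.0565). These 7 comparisons are given with unadjusted p-values.

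**Figure D4:**
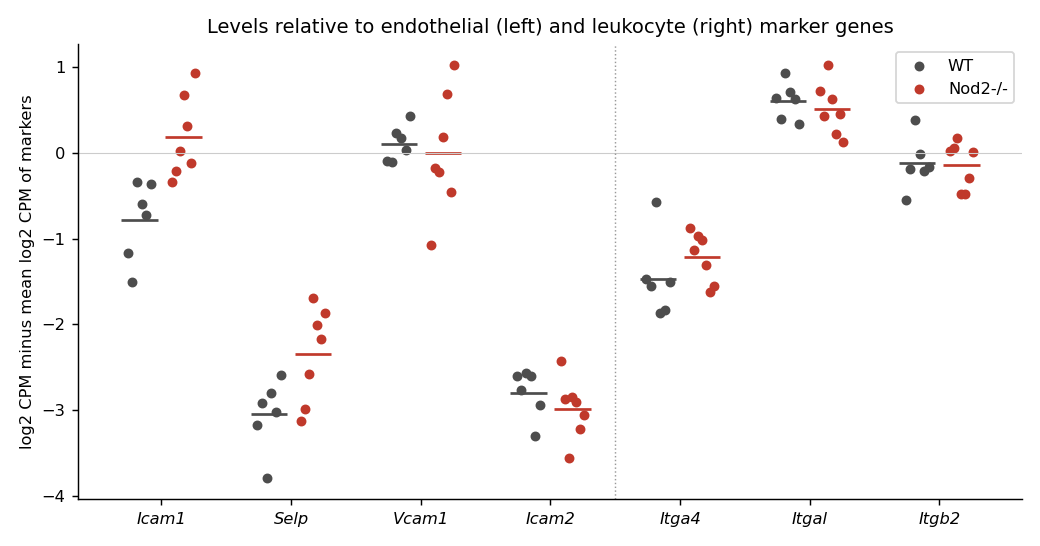
Log2 CPM of each tested gene minus the mean log2 CPM of 22 endothelial markers (left of the dotted line) or 10 leukocyte markers (right), 1 point per mouse, with a bar at the mean of WT (grey, n = 6) and *Nod2*-/- (red, n = 7). The mean of *Icam1* lies 0.96 higher and that of *Selp* 0.70 higher in *Nod2*-/- mice, and the means of *Itgal* and *Itgb2* differ by −0.09 and −0.02.

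Markers of other cell types were followed too, and their part in these results was not tested. Their counts stand beside 12.9% of all tested genes higher and 10.2% lower at an unadjusted p under 0.05. Of 14 neutrophil markers 5 were tested by edgeR, and all 5 were higher at an unadjusted p under 0.05 and 0 passed 5% FDR. By DESeq2, 6 of the 14 were higher at 5% FDR, where 3.81% of its genes were higher and 7.26% changed in either direction. Without *Nod2*-/- replicate 7, 4 of 5 tested by edgeR were higher at an unadjusted p under 0.05, and 0 passed 5% FDR. Exact permutation tests over all mice gave p = 0.142 to 0.652 for these 5. Those tests compare mean normalized counts, and replicate 7 held from 35.9% (*Prtn3*) to 91.9% (*S100a8*) of the *Nod2*-/- sum. A large p from them therefore does not show equal levels. From 1 (*Cxcr2*) to 6 (*S100a8* and *S100a9*) of the 7 *Nod2*-/- mice were above every WT mouse. *S100a8*, a neutrophil marker, had a mean of 17.3 normalized counts in WT and of 742 in *Nod2*-/- mice, or 69.9 without replicate 7. For *Cxcr2*, a chemokine receptor of neutrophils, these means were 12.5, 43.8 and 13.4. *Ly6g*, a defining neutrophil gene, was at 0 to 2.19 normalized counts in WT mice and reached 71.5 in *Nod2*-/- replicate 7. Kupffer cell markers summed to 2753 to 4769 in WT, 3327 to 6019 in 6 *Nod2*-/- mice and 9951 in replicate 7, with 3 of 10 higher at an unadjusted p under 0.05, and 1 of 10 without replicate 7. Monocyte markers summed to 387 to 938 in WT, 513 to 898 in 6 *Nod2*-/- mice and 1948 in replicate 7. Platelet markers, which bear on *Selp*, summed to 8.84 to 25.2 in WT and 10.6 to 150 in *Nod2*-/- mice, and 1 of 7, *Pf4*, was tested (log2 fold change 0.92, edgeR adjusted p = 0.241). Lung epithelium markers summed to 241 to 3376 in WT and 48.6 to 553 in *Nod2*-/- livers. Of the 8 listed, 5 were tested by edgeR. All 5 were lower at an unadjusted p under 0.05, and 0 passed 5% FDR (3 without WT replicate 3). By DESeq2, 6 of the 8 were lower at 5% FDR. Of 6 cholangiocyte markers, 1 was higher at 5% FDR by edgeR, *Sox9*, a transcription factor of bile duct cells, with 24.1 to 77.8 normalized counts in WT and 77.05 to 164 in *Nod2*-/- mice (log2 fold change 1.29, adjusted p = 0.0324). The lowest edgeR adjusted p of that list was 0.0567 without *Nod2*-/- replicate 7. Of 8 hepatocyte markers, 1 was higher and 2 were lower at an unadjusted p under 0.05, among them *Hnf4a*, a hepatocyte transcription factor (log2 fold change −0.34, edgeR adjusted p = 0.0805, DESeq2 adjusted p = 0.00591).

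Members that work as partners were compared across the 13 mice after the mean of each genotype was subtracted, in 6 pairs. The permutation shuffled the centred values over all 13 mice and did not allow for the subtracted means. Its p-values can therefore be somewhat too small, which matters for those near 0.05. *Itgal* and *Itgb2*, the LFA-1 chains, were the most closely tied, with Pearson r = 0.92 and Spearman rho = 0.80 (permutation p = 3e-05 and 0.0016, adjusted over the 6 pairs to 0.00018 and 0.0048). Without the 2 mice farthest from the median of *Itgal*, which were the mice that stand apart, r was 0.76 (permutation p = 0.00703). Within WT mice r was 0.91 and within *Nod2*-/- mice 0.92. *Itgam* and *Itgb2*, the Mac-1 chains, gave r = 0.69 (permutation p = 0.0200, adjusted 0.0240) and rho = 0.32 (permutation p = 0.279, adjusted 0.279). Without *Nod2*-/- replicates 1 and 7 their r was 0.05 (permutation p = 0.893), so that relation rests on those mice.

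*Icam1* varied with *Vcam1* from mouse to mouse. Their r was 0.82 and rho 0.91 (permutation p = 0.00036 and 4e-05, adjusted 0.00108 and 0.00024), and r was 0.80 without WT replicate 2 and *Nod2*-/- replicate 1 (permutation p = 0.00323). *Icam1* and *Itgb2*, ligand and receptor chain, gave r = 0.69 and rho = 0.70 (permutation p = 0.00721 and 0.0101, adjusted 0.0144 and 0.0187), and r = 0.72 without the same 2 mice (permutation p = 0.0100). Without *Nod2*-/- replicate 7 their r was 0.60 (permutation p = 0.0387, adjusted 0.0775), and without both mice that stand apart it was 0.41 (permutation p = 0.210). *Icam1* and *Selp* gave r = 0.56 and rho = 0.58 (permutation p = 0.0476 and 0.0408, adjusted 0.0476 and 0.0489). Without those 2 mice r was 0.49 (permutation p = 0.128), and within WT mice r was −0.01 against 0.89 within *Nod2*-/- mice, a difference that was not tested. *Itga4* and *Vcam1*, receptor chain and ligand, gave r = 0.68 and rho = 0.68 (permutation p = 0.0105 and 0.0125, adjusted 0.0157 and 0.0187), and r = 0.51 without the mice that stand apart (permutation p = 0.106). Within WT mice and within *Nod2*-/- mice r was 0.74 each. Genes of 1 library share its depth and cell makeup, and without *Nod2*-/- replicate 7 the pairs past 5% FDR were 2 of 6 in place of 6.

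**Figure D5:**
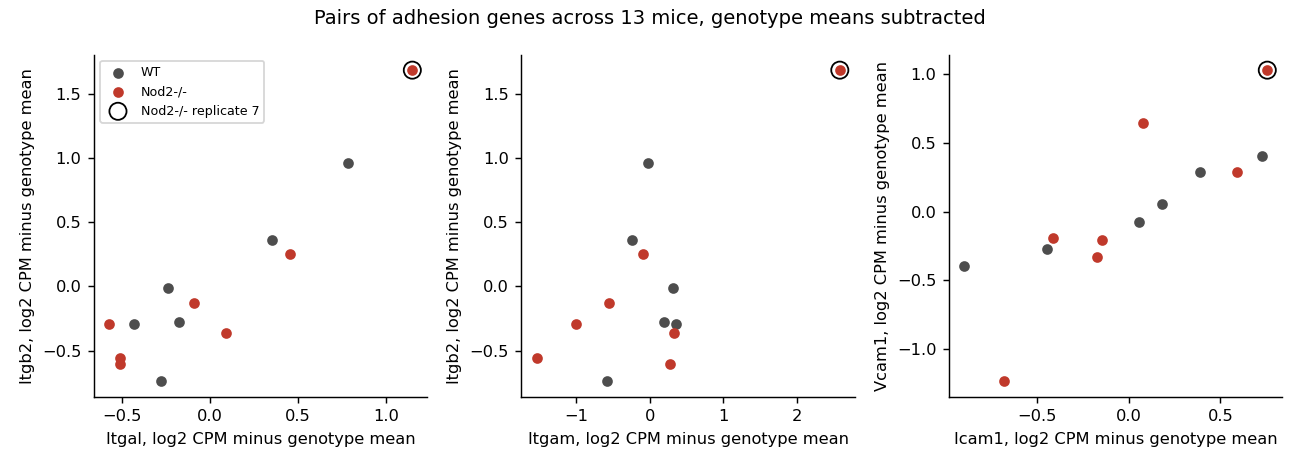
Log2 CPM of 3 pairs of genes minus the mean of each genotype, 1 point per mouse for WT (grey) and *Nod2*-/- (red), with *Nod2*-/- replicate 7 circled. *Itgal* with *Itgb2* (r = 0.92) and *Icam1* with *Vcam1* (r = 0.82) follow a line, and in the middle panel the circled mouse stands alone (r = 0.69 with it and 0.12 without it).

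Over all tested genes, those most like each member across the 13 mice, by r of the same genotype-centred log2 CPM, are given as a description. For *Itgb2* the closest was *Ptprc* (r = 0.99), the gene of the pan-leukocyte antigen CD45, followed by *Apobr* and *Soat1* (0.97 each). For *Itgal* they were *Sdc3*, *Dock2* and *Csf1r* (0.96, 0.96 and 0.95), and for *Itga4* they were *Pld4*, *Cd300lb* and *Cd86* (0.95, 0.95 and 0.93). For *Icam1* they were *Rgs19*, *Map3k1* and *Timeless* (0.96, 0.95 and 0.95), and for *Vcam1* *Serpina3g*, *Pip4k2a* and *C1s2* (0.94, 0.93 and 0.90). For *Selp* they were *Ung*, *2410006H16Rik* and *Serpina3n* (0.95, 0.95 and 0.93), and for *Icam2* *Telo2*, *Cnot4* and *Foxk2* (0.90, 0.90 and 0.89).

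The rest of the adhesion pathway was followed in 6 lists of 88 genes, of which 67 were tested. By edgeR with Benjamini-Hochberg adjustment 1 of the 67 passed 5% FDR, where 1.16% of all tested genes did. At an unadjusted p under 0.05, 31 were higher and 2 lower, where 12.9% of all tested genes were higher and 10.2% lower. A log2 fold change above 0 was found for 52.3% of all tested genes. The 1 list gene past 5% FDR was *Itga5*, the alpha chain of the fibronectin receptor, which the study had also picked on these samples. It had 151 to 251 normalized counts in WT mice (median 226) and 300.3 to 482 in *Nod2*-/- mice (median 344), with no overlap. Its log2 fold change was 0.71 (edgeR, adjusted p = 0.0347), and the exact permutation p of 0.000583 is the smallest that 6 against 7 mice allow. Of the mice left out in turn, 7 of 13 took its edgeR adjusted p over 0.05, to at most 0.0799.

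Of 12 tested genes in the list of other integrin alpha subunits, 10 had a log2 fold change above 0 and 3 were higher at an unadjusted p under 0.05. Of 5 tested beta subunits, all 5 were above 0 and 3 were higher at that p, led by *Itgb3*, the beta chain of platelet and endothelial integrins (log2 fold change 0.90, edgeR adjusted p = 0.123), and *Itgb7*, the other beta partner of *Itga4* (1.01, adjusted p = 0.160). Of 18 tested genes of integrin activation and linkage, 11 were above 0, 5 were higher and 1 was lower at an unadjusted p under 0.05. *Rasgrp2*, the activator of Rap1 that turns integrins on, and *Vav1*, a signalling protein of blood cells, led this list, with log2 fold changes of 1.25 and 1.27 (edgeR, adjusted p = 0.0601 and 0.0870). The study had picked both on these samples.

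Of the junctional and other adhesion receptors, 9 of 11 tested genes were higher and 1 was lower at an unadjusted p under 0.05, and 10 had a log2 fold change above 0. *Jam2*, an endothelial junction protein, had a log2 fold change of 0.83 (edgeR, adjusted p = 0.0526), and *Cd47*, which is on most cells, 0.42 (adjusted p = 0.0644). Of 9 tested selectins and selectin ligands, 7 were above 0 and 3 were higher at an unadjusted p under 0.05, among them *Podxl*, a sialomucin of endothelium (log2 fold change 0.58, edgeR adjusted p = 0.0777). Of 12 tested genes that NF-kB induces, all 12 were above 0 and 8 were higher at an unadjusted p under 0.05. *Nfkbia*, *Nfkb1*, *Ccl2* and *Cxcl10*, named after their values were seen, were not, and *Nfkbia* had a log2 fold change of 0.02. The study had picked *Cxcl1* and *Il1b* of this list on these samples. *Nfkbie*, an inhibitor of NF-kB, had a log2 fold change of 0.76 (edgeR, adjusted p = 0.0565), and *Tnfaip2* one of 0.74 (adjusted p = 0.0601). The median log2 fold changes of these lists ran from 0.18 for integrin activation to 0.67 for the NF-kB genes, against 0.02 over all tested genes. By DESeq2, 18 of the list genes were higher and 1 lower at 5% FDR, where 3.81% of its genes were higher and 7.26% changed in either direction.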

How the data were processed

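Liver RNA of 6 WT and 7 *Nod2*-/- mice had been sequenced as stranded, polyadenylated RNA libraries. Per the labels, the authors' tools were Trimmomatic 0.33, TopHat2 2.1.1 and DESeq2, with build GRCm38, and the authors deposited raw counts per gene and mouse. The counting program, and its use of strand, are not given in the sources used here. A single row had no gene name and was dropped. Symbols and GENCODE release 21 positions matched 53274 of 53465 genes.

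Genes kept by filterByExpr (13545) were tested with edgeR 4.0.16 (TMM, glmQLFit, glmQLFTest, two-sided, no covariate) in R 4.3.3, with Benjamini-Hochberg adjustment over all of them. Normalized counts bring each library to the average effective size (TMM), and log2 CPM used a prior count of 2. Exact permutation tests enumerated 1716 splits (p of 0.000583 or more), and correlations over 100000 resamples. Alternatives were DESeq2 1.42.0, voomWithQualityWeights of limma 3.58.1, RLE normalization, other filters, a replicate block, a robust fit, 1 surrogate variable (sva 3.50.0), library sizes without the 20 most abundant genes, and leaving out each mouse. Leaving out WT replicate 3 with *Nod2*-/- replicate 7, and DESeq2 without the latter, were chosen after seeing the data. The tests were tested on simulated data. All 36 pairs of libraries of a genotype differed by more than counting noise (chi-square over its degrees of freedom, 10.7 to 160), and each mouse was counted as 1 sample.

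The members and all lists were chosen with earlier results of these data known. Beside the 9 members, the text names list genes past 5% FDR, otherwise the 2 per list with the smallest p, defining markers, and the 3 genes most like each tested member. Protein sequences were not used here.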

Additional observations from a re-analysis of the deposited data

Results flagged for a closer look

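In 18 groups of 6 or 7 mice (9 genes in 2 genotypes), the highest or lowest mouse was tested by Dixon's criterion at 95%, by which chance flags about 1 group in 20, and 4 values from 2 mice stood apart from the rest of their group. *Nod2*-/- replicate 7 had 69.6 normalized counts of *Itgam*, where the other *Nod2*-/- mice had 2.12 to 12.96. The same mouse had 302 normalized counts of *Itgb2*, against 60.3 to 111 in the others, and 101 of *Itga4*, against 22.8 to 49.3. WT replicate 3 had 59.6 normalized counts of *Itga4*, against 14.4 to 22.1 in the other WT mice. The 5 genes of the endothelial side (*Icam1*, *Icam2*, *Vcam1*, *Sele* and *Selp*) and *Itgal* had no such mouse in either genotype.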

How the results depend on the processing

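Of 740 values computed under an alternative, 590 kept their direction and side of the threshold or, for counts, moved by at most 1.5 times, 15 changed sign, 43 lost and 17 gained significance, and 75 counts moved further; the causes were not tested. The number of genes past 5% FDR, 88 higher and 69 lower, became 605 and 549 by DESeq2, 519 and 324 by voomWithQualityWeights, 381 and 316 with 1 surrogate variable, 408 and 159 without both mice that stand apart, and 316 and 301 by DESeq2 without *Nod2*-/- replicate 7. The members past 5% FDR, 1 by edgeR, became 2 by DESeq2 with and without that mouse, with 1 surrogate variable and without both mice, and 0 in the robust fit, where *Icam1* had a log2 fold change of 1.21 and an adjusted p of 0.0538. *Selp* passed by DESeq2 (log2 fold change 1.07, and 0.99 without *Nod2*-/- replicate 7) and with 1 surrogate variable (1.17), and *Itga4* without both mice (1.08). The members at an unadjusted p under 0.05, 3 by edgeR, became 5 by DESeq2, by voomWithQualityWeights, without the filter on low counts (which lets *Sele* and *Itgam* in) and without both mice. The members at an exact permutation p under 0.05, 2 as reported, became 4 on the log2 scale and 5 without both mice. The list genes past 5% FDR, 1 as reported, became 19 by DESeq2, 5 by DESeq2 without *Nod2*-/- replicate 7 and 9 without both mice.

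Relative to leukocyte markers, the differences of *Itgal* and *Itgb2* changed sign to 0.43 and 0.50 with summed markers and to 0.036 and 0.059 without both mice, and the pairs past 5% FDR fell from 6 to 3 without both mice. Leaving out each mouse in turn gave 20 to 697 higher and 20 to 459 lower genes, 0 to 2 members past 5% FDR, 2 to 5 at an unadjusted p under 0.05, 2 to 4 at an exact permutation p under 0.05, 1 or 2 that differed from the markers, 2 to 6 pairs and 0 to 17 list genes past 5% FDR. The extremes of the higher genes came without WT replicate 4 (20) and WT replicate 3 (697). Log2 fold changes ran from 1.06 to 1.37 for *Icam1*, 0.94 to 1.20 for *Selp*, 0.61 to 1.36 for *Itga4* and −0.035 to 0.17 for *Icam2*, whose exact permutation p ran from 0.318 to 0.931. Relative to markers, *Vcam1* ran from −0.29 to 0.065 and *Itgb2* from −0.10 to 0.084.

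The genotypes share replicate numbers, and deviations from the group means of same-numbered mice correlated by −0.3 to 0.3 (over 0.1 in 1 of 6 pairs). This gave no sign that the numbers pair the mice, but it cannot exclude a pairing. With the replicate number as a block, 17 genes were higher and 18 lower at 5% FDR, 0 members and 0 list genes passed, *Icam1* had a log2 fold change of 1.09 (edgeR, adjusted p = 0.0719) and *Vcam1* one of −0.025. Low counts limit *Sele* and *Itgam*, with at most 5 counts per mouse for *Sele* and at most 13 for *Itgam* outside *Nod2*-/- replicate 7. For *Itgam*, the parts of depth and of exon bases shared with *Gm49368* in this were not tested.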
